A study of Danio rerio with 3 samples.

Results

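The probes named dre-miR-203a, dre-miR-200a, dre-miR-200b and dre-miR-429 (dre for *Danio rerio*, left out below), miRNAs best known from epithelia, were followed in zebrafish embryos injected with a morpholino (MO) against *lin-28a* or *lin-28b*. They were chosen by name, and are 4 of 218 zebrafish miRNA probes on the array, with 4 spots each. Wild-type AB embryos were injected soon after fertilization with Control MO, Lin28A MO or Lin28B MO, antisense oligonucleotides, and RNA was taken at 5 hpf (hours post-fertilization). Each condition was measured on 1 miRCURY LNA array, and no uninjected embryos were among the arrays. Embryo RNA carried the dye Hy3 and a Universal Reference the dye Hy5, so that Hy3/Hy5 is the level of a miRNA relative to the reference. A note in the labels speaks of a blend of samples in equal parts, and does not settle what the reference was made of. The paper designed both targeting MOs to block splicing, a step of newly made transcripts. By RT-PCR at 5 hpf it found less *lin-28a* and *lin-28b* transcript after the matching MO, and a misspliced *lin-28b* product. Whether mature maternal mRNA was also affected was not tested here, and the paper states that it could not separate the maternal functions. How many embryos made up each RNA sample is not stated in the labels or methods.

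A miRNA guides an Argonaute complex to matching mRNAs, which are then translated less or degraded. In mice, miR-203 is made in the stratifying epidermis, where it represses p63, a transcription factor of epidermal progenitors. Zebrafish miR-203 is known from skin and from the regenerating fin. Members of the miR-200 family repress ZEB1 and ZEB2, repressors of E-cadherin, in mammalian cells and so favour the epithelial state, and in zebrafish they are known from olfactory and other epithelia. Lin-28 proteins bind precursors of let-7 miRNAs and block their maturation. At 5 hpf the enveloping layer is the outer epithelium of the embryo, and the tissues named above have not yet formed.

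All 4 members matched a gene in the RefSeq annotation of the GRCz12tu assembly. In it, mir200b, mir200a and dre-mir-429 followed one another on chromosome 23 with no other annotated gene between them. The gene mir203a lay apart from them, on chromosome 17. A like group on chromosome 6 holds mir429b, mir141 and mir200c in that order. The array thus sampled a cluster of neighbours and an independent gene, and probes for related members may share signal, so the miR-200 probes are uncertain as separate measurements.

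Signal separated the members. The mean Hy3 signal of miR-203a was 182 ± 29.6 with control MO, 134 ± 12.5 with *lin-28a* MO and lowest with *lin-28b* MO, at 60.5 ± 14.9 (here and below, SD over the 4 spots of 1 array, which is technical). That of miR-200a was 25.1 ± 5.35, 20.8 ± 1.67 and 20.4 ± 3.05 on the same arrays. The probe for miR-200b gave 26.1 ± 1.01, 30.0 ± 14.5 and 21.2 ± 1.56, and that for miR-429 gave 16.0 ± 3.66, 17.4 ± 3.34 and 17.9 ± 4.64. The medians over all 218 zebrafish miRNA probes were 17.0, 15.2 and 15.5, so miR-429 lay near them, while miR-200a and miR-200b, which ranked between 31 and 68 of the 218 in Hy3, lay above them and far below miR-203a. Brightness depends on the probe as well as on its miRNA, so these values place the signal and do not rank the miRNAs by abundance.

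**Figure D1:**
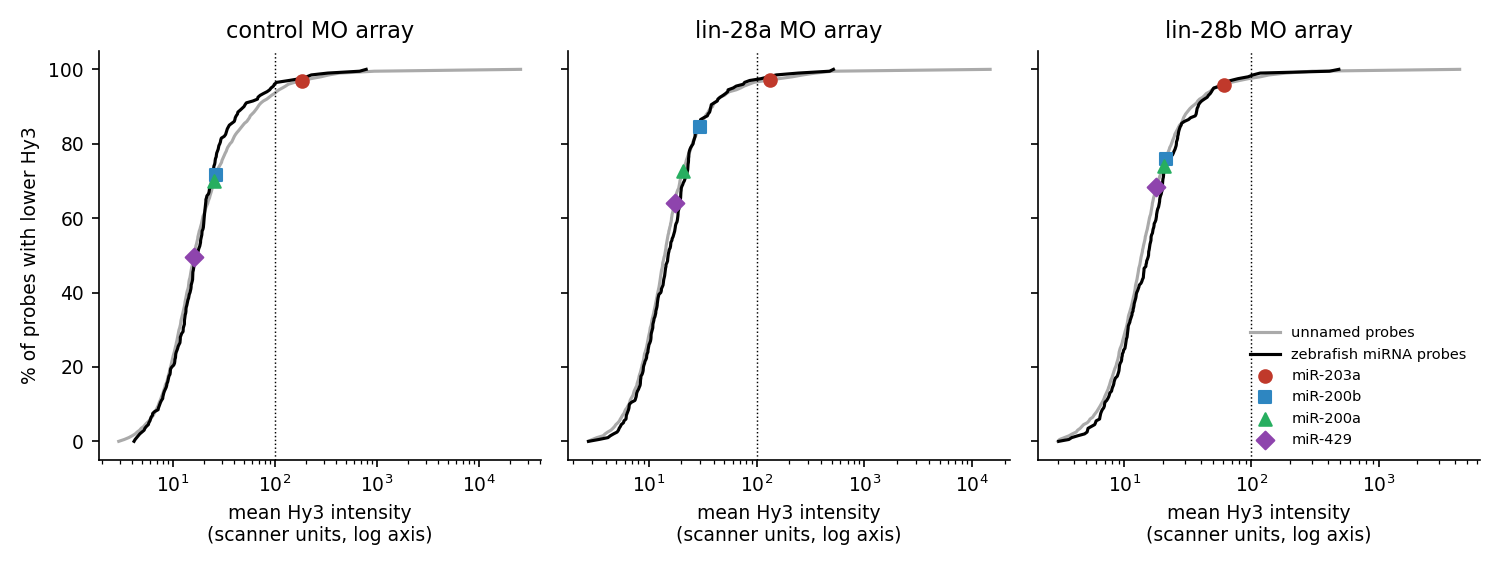
Mean Hy3 intensity (scanner units, log axis) of the 4 members on each array, placed on the cumulative distribution of 2082 unnamed probes (grey, targets not known here). That of 218 zebrafish miRNA probes is in black, and a dotted line marks an intensity of 100. The miR-203a probe lay near the top on each array, above 95.9% to 97.1% of the unnamed probes, and miR-200a, miR-200b and miR-429 lay between 49.6% and 84.6%.

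Probes for miRNAs of tissues that form after 5 hpf were set beside the members. Whether these miRNAs are themselves absent at 5 hpf was not tested, and not all of their probes were dim. Of 17 such probes (muscle, nervous system, blood, and liver with gut and pancreas), 0 had a Hy3 above that of miR-203a with control MO or with *lin-28a* MO. With *lin-28b* MO 1 did, miR-223 of myeloid blood cells, at 62.5. The brightest of these probes on the control MO array was miR-133a of muscle, at 88.5 ± 77.6, whose spots thus varied with a CV of 87.7% and which had 35.5 and 38.9 on the other arrays. The brightest of the other late-tissue lists there were miR-223 at 72.2 ± 9.01, miR-9 of the nervous system at 33.7 and miR-122 of liver at 25.2. Against the miR-200 members, 7 of the 17 were brighter than all 3 of them with control MO, as were 4 with *lin-28a* MO and 9 with *lin-28b* MO. The signals of miR-200a, miR-200b and miR-429 thus overlapped those of probes for miRNAs of tissues not yet present, and the table has no flag that says whether a spot exceeded its background.

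In the reference channel, the miR-203a probe was bright as well, and its Hy5 also differed between arrays. Its Hy5 of 177 ± 27.1 with control MO stood against 142 ± 10.9 with *lin-28a* MO and 92.4 ± 6.19 with *lin-28b* MO. The Hy5 signal of miR-200a was 15.7 ± 3.06, 15.2 ± 2.96 and 16.6 ± 1.39, and that of miR-200b was 19.8 ± 3.35, 21.7 ± 2.0 and 18.1 ± 2.85. For miR-429 the Hy5 values were 10.7 ± 2.39, 13.8 ± 2.15 and 12.8 ± 1.53. Many reference spots shared a single low value on the morphant arrays, which touched the miR-429 probe most. On the *lin-28a* MO array 897 of 9984 spots had a Hy5 of exactly 12.7, and 3 of the 4 miR-429 spots and 1 of the 4 miR-200a spots were among them. On the *lin-28b* MO array the most common Hy5 was 11.8, with 480 spots, 1 of them of miR-429. No spot of miR-203a or miR-200b had the most common Hy5 of its array.

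The comparison of each morphant with control MO-injected embryos asks which miRNAs differ after knockdown of *lin-28a* or *lin-28b*. The paper describes delayed growth, reduced epiboly (the spreading of the blastoderm) and less cell proliferation in both morphants. A direct dependence on *lin-28* cannot be told apart here from such a delay, and neither was tested. With 1 array per condition no test could be run, no p-value is given, and each fold describes these arrays. A miRNA was counted when its ratio differed by more than 1.5-fold and its spot CV (the SD over spots as a percent of the mean) was under 50% on both arrays. By this rule 0 of the 4 members were counted in *lin-28a* morphants, where 7.18% of 209 zebrafish miRNA probes were lower and 1.44% higher. In *lin-28b* morphants 1 of the 4, miR-203a, was lower and 0 were higher, where 3.33% of 210 probes were lower and 2.86% higher. Between the morphants 0 of the 4 were counted, where *lin-28b* MO was lower at 0.465% of 215 probes and higher at 0.465%. With a Hy3 over 100 required on either array, miR-203a alone could be judged, and its counts were the same. For *lin-28b* MO over control it met this limit only on the control MO array (182 against 60.5). In all, 9 zebrafish miRNA probes were over 100 with control MO, 6 with *lin-28a* MO and 5 with *lin-28b* MO. The limit thus favours probes that are lower in morphants, and the filtered count and shares are no separate check. Among the few zebrafish miRNA probes over 100, the share lower was 44.4% of 9 for the *lin-28a* MO and 55.6% of 9 for the *lin-28b* MO, and among unnamed probes over 100 it was 9.8% of 102 and 36.3% of 102. For *lin-28b* MO over *lin-28a* MO the share lower was 16.7% of 6 such zebrafish probes and 12.5% of 72 unnamed ones. Over control, the zebrafish probes over 100 that were counted as lower with *lin-28a* MO were all miR-430 probes. With *lin-28b* MO they were the same miR-430 probes and miR-203a itself. These shares thus rest on a single family and on the member being judged.

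The miR-203a ratio was lowest in *lin-28b* morphants. On the control MO array its 4 spots had Hy3 signals of 216, 188, 181 and 144 over Hy5 signals of 213, 175, 174 and 147, which gave ratios of 1.01, 1.07, 1.04 and 0.980. On the *lin-28a* MO array, in the same order of spots, Hy3 was 134, 116, 139 and 145 and Hy5 was 138, 130, 143 and 156, for ratios of 0.971, 0.892, 0.972 and 0.929. On the *lin-28b* MO array, Hy3 was 81.5, 60.3, 51.1 and 48.9 and Hy5 was 101, 90.7, 86.3 and 91.4, for ratios of 0.807, 0.665, 0.592 and 0.535. The 3 sets of ratios did not overlap. The order was control MO, then *lin-28a* MO, then *lin-28b* MO, and the step between control MO and *lin-28a* MO was the smaller. The Hy3 signals of control MO and *lin-28a* MO overlapped, since 1 *lin-28a* spot, at 145, exceeded the lowest control spot, at 144.

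**Figure D2:**
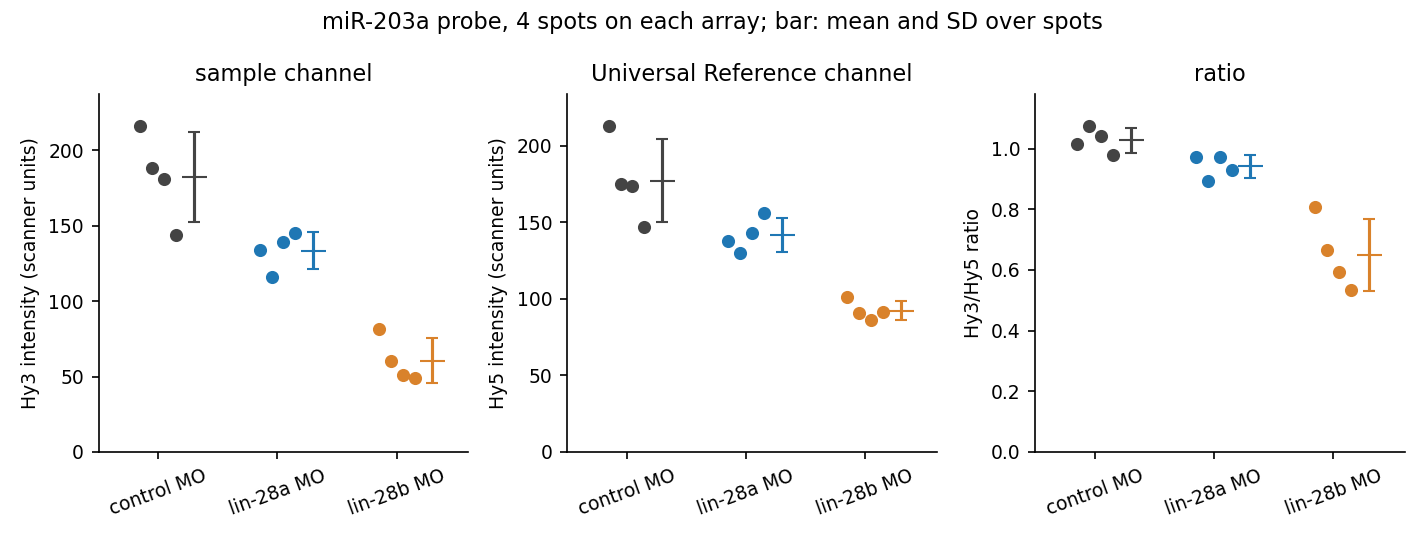
Hy3 intensity, Hy5 intensity (both in scanner units) and Hy3/Hy5 ratio of the 4 miR-203a spots on each array, with the mean and SD over spots beside them. Both channels were lowest on the *lin-28b* MO array, and the mean ratio was 1.03 with control MO, 0.941 with *lin-28a* MO and 0.650 with *lin-28b* MO.

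As a fold over control MO, miR-203a stood at 0.633 in *lin-28b* morphants, or -0.66 in log2 (SD over spots 0.24), with every spot under its control counterpart. The log2 fold stayed below 0 under all 14 processing alternatives and passed 1.5-fold under 8 of them. Those 8 were other summaries of the same spot ratios, each spot left out, and the authors' table. With loess, normexp, Hy3 alone or any of the centrings it lay within 1.5-fold, between -0.51 and -0.069. In *lin-28a* morphants the log2 fold was -0.13 (SD 0.10), with 4 of 4 spots lower, but it was 0.42 when arrays were centred on bright zebrafish miRNAs and 0.13 when centred on all zebrafish miRNAs. The log2 fold of *lin-28b* MO over *lin-28a* MO was -0.53 (SD 0.25), just inside 1.5-fold, and below 0 under all 14 alternatives. This last comparison uses no control array. Over all zebrafish miRNAs with a CV under 50%, miR-203a had the 2nd lowest fold of 215 there, the 7th lowest of 210 in *lin-28b* morphants over control and the 112th lowest of 209 in *lin-28a* morphants over control. The medians of those probes were 0.06, -0.14 and -0.14. Among the zebrafish probes with a Hy3 over 100 on either array, miR-203a was 2nd lowest of 6, 5th lowest of 9 and 7th lowest of 9, in the same order. The medians of these bright probes were -0.12, -0.66 and -0.24, so in *lin-28b* morphants over control miR-203a was itself the median. The bright probes below miR-203a in that comparison were all miR-430 probes, with log2 folds from -0.96 to -0.67. Every other bright zebrafish probe lay above miR-203a there, the lowest being miR-148 at -0.50.

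Ratios of a probe outside the range of the other array were not rare. In *lin-28a* morphants over control the spots of 2 of the 4 members, miR-203a and miR-429, all lay below the control range, as did those of 18.3% of 218 zebrafish miRNA probes. In *lin-28b* morphants over control this held for 1 member, miR-203a, and for 13.8% of the probes. Between the morphants it held for miR-203a again, lower in *lin-28b* MO, and for 2.75% of the probes.

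Split by channel, the sample signal of miR-203a changed more than its reference signal. In *lin-28b* morphants Hy3 was 0.332 and Hy5 0.521 of control, log2 changes of -1.59 and -0.94. In *lin-28a* morphants Hy3 was 0.733 and Hy5 0.80 of control, log2 changes of -0.45 and -0.32. Bright probes with no name moved alike. What these probes target is not known here, so they are not a set known to be unchanged. They were picked for a Hy3 over 100 on either array, as miR-203a was. Probes bright only on the array that a fold is taken over (control MO, or *lin-28a* MO between the morphants) are thus included, which favours lower Hy3 values. Over 102 unnamed probes with a Hy3 over 100 on either array, the median log2 change in *lin-28b* morphants was -1.38 for Hy3, -0.88 for Hy5 and -0.41 for the ratio. In *lin-28a* morphants these medians were -0.48, -0.36 and -0.12. The log2 fold of the miR-203a ratio was undercut by 32 of the 102 for *lin-28b* MO and by 50 of the 102 for *lin-28a* MO. Between the morphants, the median log2 fold of 72 such probes was -0.21, and 13 of them were lower than miR-203a. The reference carries the same label on each array, and 97 of the 102 had a lower Hy5 on the *lin-28b* MO array than on the control MO array, and the part of this array difference in the miR-203a fold was not tested.

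**Figure D3:**
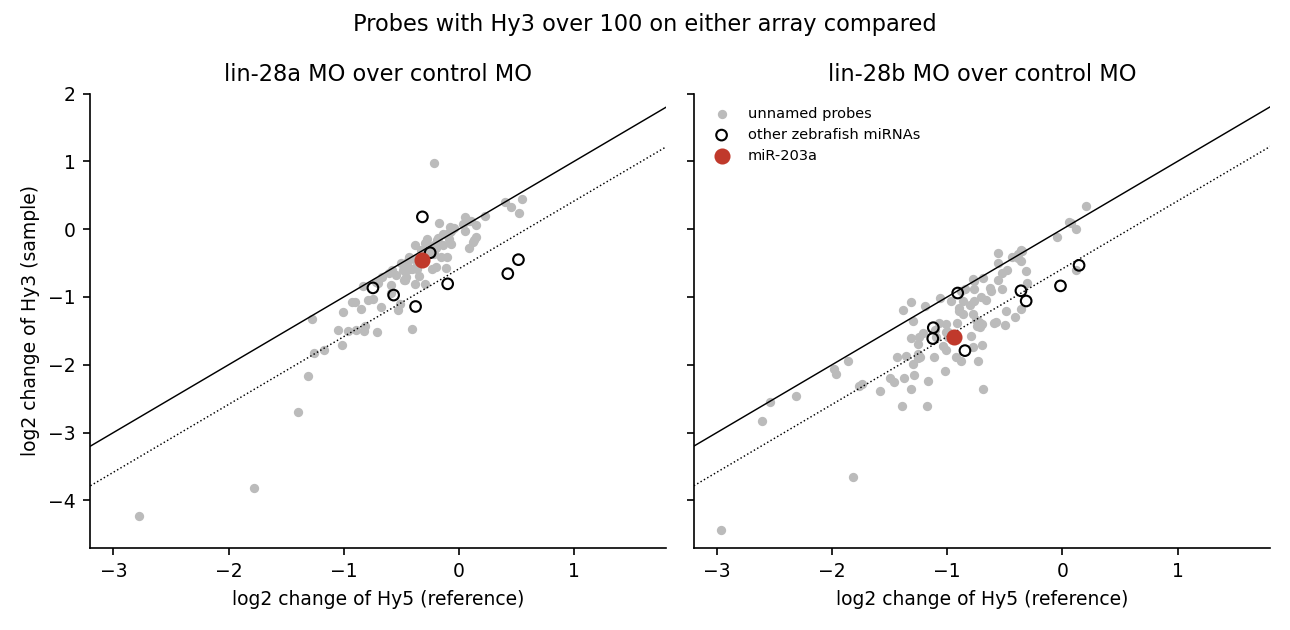
Log2 change of Hy3 (sample) against log2 change of Hy5 (reference) over control MO for probes with a Hy3 over 100 on either array, with 102 unnamed probes in grey, 8 other zebrafish miRNAs as open circles and miR-203a in red. On the solid line the ratio is unchanged and on the dotted line it is 1.5-fold lower, and miR-203a (-1.59 in Hy3 and -0.94 in Hy5 for *lin-28b* MO) lay within the cloud of unnamed probes in both panels.

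The miRNAs with the most similar ratios over the 3 arrays, among 8 others with a Hy3 over 100 on at least 1 array, were let-7c, miR-148 and miR-430c. Their Euclidean distances from miR-203a in log2(Hy3/Hy5) were 0.29, 0.47 and 0.49, and miR-430a was nearly as close at 0.50. Like miR-203a, let-7c and miR-148 had their lowest ratio in *lin-28b* morphants, as did most of the 8. The 3 were picked by these same ratios, so their likeness is not a separate result. The spot ratios of let-7c overlapped in every comparison. The ratio of let-7c, the differentiation miRNA that Lin-28 holds back, was 1.03 with control MO, 0.933 with *lin-28a* MO and 0.795 with *lin-28b* MO. Its Hy3 was 168.5, 92.4 and 61.5, and its Hy5 was 0.596 of control with *lin-28a* MO and 0.460 with *lin-28b* MO. By quantitative PCR at the same stage, the paper found let-7a and let-7b very low and without significant upregulation in morphants. It found both increased at a later stage. For miR-148 it was 0.825, 0.761 and 0.582 in the same order. At miR-430c, of the family that clears maternal mRNA in zebrafish, the log2 ratio was 0.24, -0.53 and -0.73, so its larger step lay between control MO and *lin-28a* MO, where that of miR-203a was the smaller.

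The probes of the chromosome 23 cluster stayed within 1.5-fold of control in both morphants. For miR-200b, an outer gene of the 3, the spot ratios were 1.12, 1.23, 1.51 and 1.51 on the control MO array. With *lin-28a* MO they were 0.915, 1.45, 2.11 and 0.969, and with *lin-28b* MO 1.11, 1.29, 1.33 and 1.02. The 3 sets overlapped, and the *lin-28a* spots spread widest. On that array the third spot had a Hy3 of 50.6, against 18.2, 29.2 and 22.1 at the others, and a Hy5 of 24.0, against 19.9, 20.2 and 22.8. The log2 fold over control was 0.02 (SD 0.50) in *lin-28a* morphants, and -0.21 without that spot. In *lin-28b* morphants it was -0.18 (SD 0.28), with 3 of 4 spots lower, and turned positive with centring on bright zebrafish miRNAs, all zebrafish miRNAs or bright unnamed probes and with Hy3 alone.

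At miR-200a, the spot ratios were 1.34, 1.86, 1.53 and 1.72 for control MO, and 1.40, 1.57, 1.69 and 0.979 for *lin-28a* MO. For *lin-28b* MO they were 1.37, 1.46, 1.16 and 0.952. The means were 1.61 ± 0.23, 1.41 ± 0.31 and 1.23 ± 0.23, and the 3 sets overlapped. The log2 fold was -0.19 (SD 0.43) in *lin-28a* morphants, with 2 of 4 spots lower. In *lin-28b* morphants it was -0.39 (SD 0.36), with 3 of 4 lower, and centring on bright zebrafish miRNAs turned both positive. Centring on all zebrafish miRNAs also turned the *lin-28a* value positive, to 0.06, and Hy3 alone the *lin-28b* value, to 0.78. In Hy3 without scaling, miR-200a was 0.826 of control with *lin-28a* MO and 0.811 with *lin-28b* MO.

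At miR-429, which shares its family with miR-200b, the spot ratios were 1.49, 1.73, 1.35 and 1.44 for control MO. They were 1.32, 1.20, 1.25 and 1.28 for *lin-28a* MO, and 1.65, 1.19, 1.32 and 1.37 for *lin-28b* MO. All *lin-28a* spots lay below the control spots, while *lin-28b* overlapped both. The log2 fold was -0.25 (SD 0.19) in *lin-28a* morphants, and it became 0.29 with centring on bright zebrafish miRNAs and 0.30 with Hy3 alone. Its Hy3 was 1.09 times that of control there and its Hy5 1.29 times, with 3 of the 4 Hy5 spots at 12.7, so the lower ratio came with a higher reference signal. In *lin-28b* morphants the log2 fold was -0.12 (SD 0.29), with 3 of 4 spots lower. It turned positive under 6 of 14 alternatives, to 0.02 without the second spot, 0.033 with normexp and 1.24 with Hy3 alone, and to 0.47, 0.10 and 0.22 with centring on bright zebrafish miRNAs, all zebrafish miRNAs and bright unnamed probes.

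**Figure D4:**
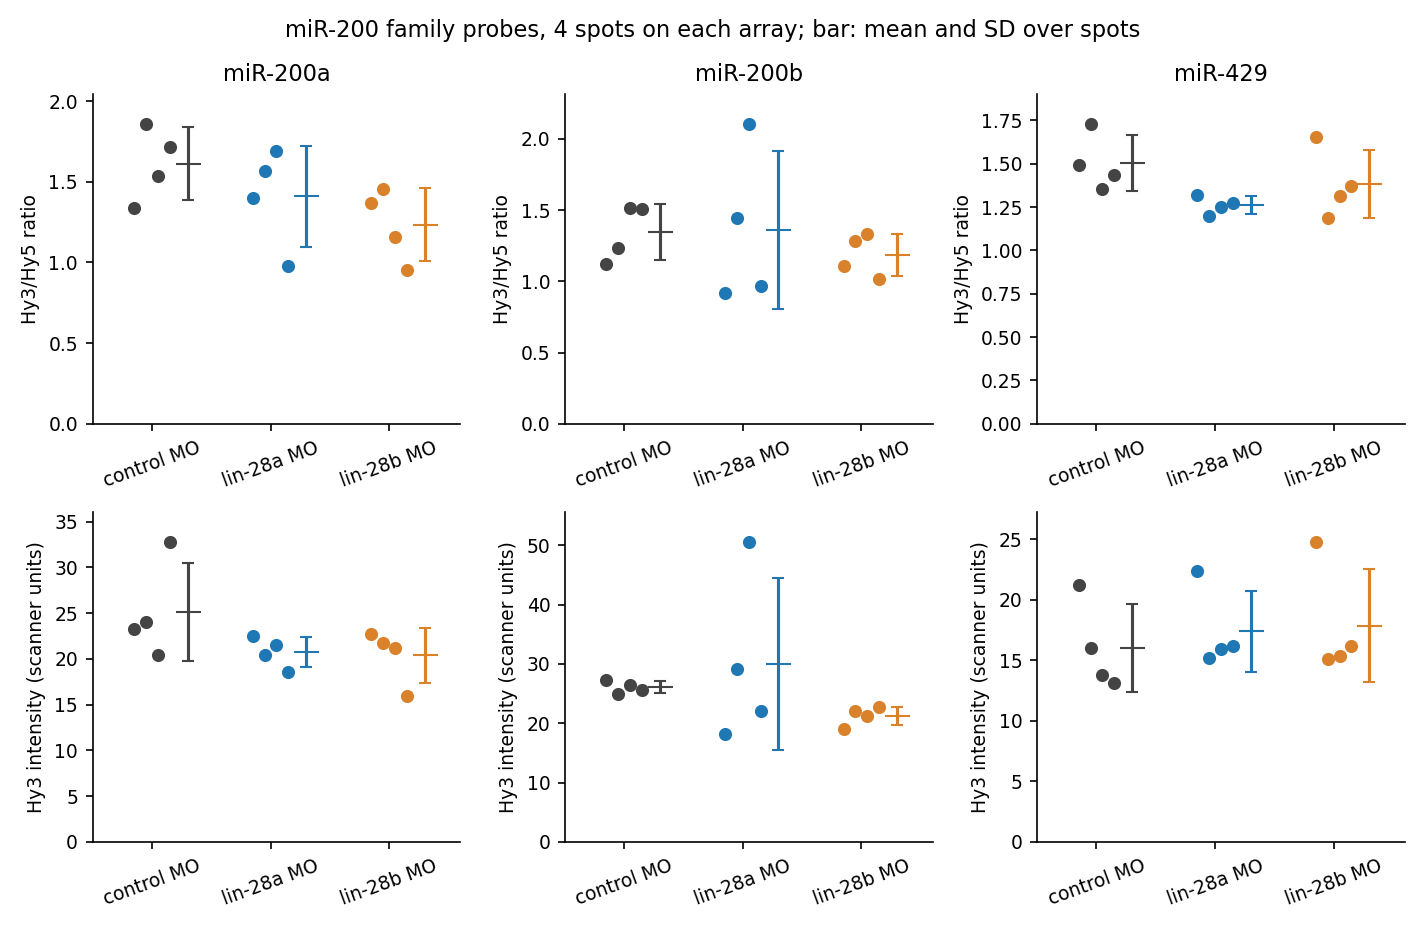
Hy3/Hy5 ratio (upper row) and Hy3 intensity in scanner units (lower row) of the 4 spots of miR-200a, miR-200b and miR-429 on each array, with the mean and SD over spots. Spots of different arrays overlapped except for the miR-429 ratio, where *lin-28a* MO (mean 1.26) lay below control MO (mean 1.5), and the Hy3 of miR-200b, where *lin-28b* MO (mean 21.2) lay below control MO (mean 26.1).

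Among themselves, the members did not share an order of arrays. The ratios of miR-203a and miR-200a ran from control MO down to *lin-28a* MO and then *lin-28b* MO, and that of miR-429 was lowest for *lin-28a* MO. That of miR-200b was 1.36 with *lin-28a* MO against 1.34 with control MO, an order that turned without the third spot, without the second, with the median of spots and with the mean of log2 ratios. Over the 3 arrays the log2 ratio spanned 0.66 for miR-203a, 0.39 for miR-200a, 0.20 for miR-200b and 0.25 for miR-429. The spot SD of the fold between the arrays furthest apart was 0.24 for miR-203a, 0.36 for miR-200a, 0.40 for miR-200b and 0.19 for miR-429. Only the span of miR-200b was smaller than this SD, and that of miR-200a was close to it. The SD is technical and does not measure how far arrays of the same condition would differ, so a span above it is no sign of a difference between conditions. For miR-429, 3 of the 4 *lin-28a* MO spots shared the most common Hy5.

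A wider epithelial list held 8 miRNAs, of which 7 were measured by a main arm probe, the 4 members with miR-200c, miR-141 and miR-205. The median log2 fold of the 7 over control was -0.19 with *lin-28a* MO and -0.21 with *lin-28b* MO, against -0.14 and -0.14 over all zebrafish miRNA probes. Of the 7, miR-141 passed 1.5-fold with *lin-28a* MO and miR-203a with *lin-28b* MO, both lower, where 7.18% of 209 and 3.33% of 210 zebrafish miRNA probes were lower. The ratio of miR-141, the miR-200 family gene next to mir200c on chromosome 6, was 0.894 ± 0.118 with control MO, 0.554 ± 0.081 with *lin-28a* MO and 0.640 ± 0.050 with *lin-28b* MO. Its Hy3 hardly differed, at 7.21, 6.64 and 6.59, while its Hy5 was 8.0, 12.2 and 10.3. The log2 fold of -0.69 in *lin-28a* morphants was thus made of a Hy3 change of -0.12 and a Hy5 change of 0.61, at a probe where only 9.85% of unnamed probes had a lower Hy3 on the control MO array.

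The same held for miR-203b*, the opposite arm from the paralogue of miR-203a, which lies on chromosome 20. Its ratio was 1.18 ± 0.17 with control MO, 0.814 ± 0.015 with *lin-28a* MO and 0.849 ± 0.129 with *lin-28b* MO. Its Hy3 lay between 9.64 and 10.4 while its Hy5 was 8.79, 12.3 and 11.4, and all 4 *lin-28a* Hy5 spots were within 10% of the median of unnamed spots, 12.8. The log2 folds of -0.53 and -0.47 were within 1.5-fold. The ratio of miR-200c was 0.685 ± 0.143, 0.704 ± 0.072 and 0.742 ± 0.050, with log2 folds of 0.04 and 0.11. For miR-205, an epithelial miRNA that with miR-200 restrains ZEB1 and ZEB2 in mammals, the ratio was 1.34 ± 0.35, 1.03 ± 0.05 and 1.15 ± 0.09, with log2 folds of -0.39 (SD 0.48) and -0.21 (SD 0.50). Without miR-203a, the main arm probes of the list had Hy3 signals between 6.59 and 30.0 on every array.

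The miR-203a fold depended on how the arrays were scaled. Centring on 9 bright zebrafish miRNAs, of which 4 are miR-430 probes and 1 is miR-203a itself, raised each log2 fold over control by 0.54 for *lin-28a* MO and by 0.59 for *lin-28b* MO. Centring on 208 zebrafish miRNAs raised them by 0.25 and 0.22, and centring on 103 bright unnamed probes by 0.12 and 0.34. Between the morphants the same centrings added 0.05, -0.03 and 0.22, which put that fold between -0.57 and -0.32. It moved further with normexp, to -0.29, and with Hy3 alone, to -0.24.

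**Figure D5:**
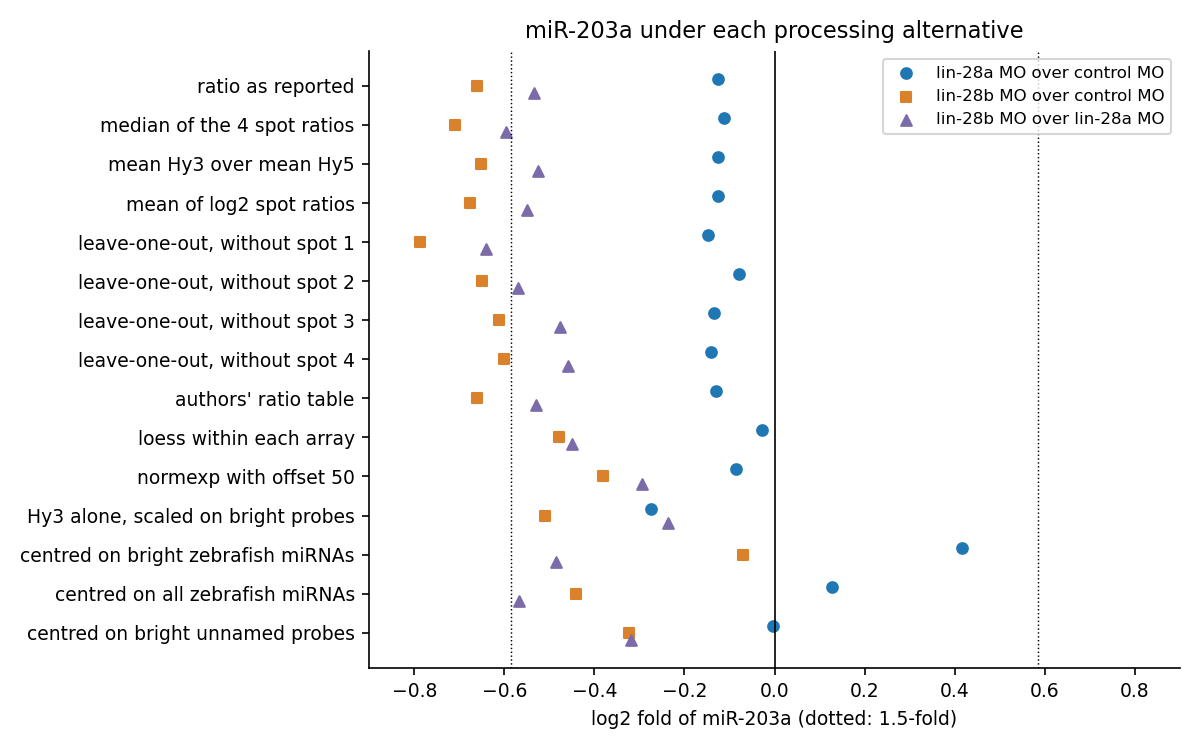
Log2 fold of miR-203a for each of 3 comparisons under the ratio as reported and 14 processing alternatives, with dotted lines at 1.5-fold. The fold of *lin-28b* MO over control MO ran from -0.79 to -0.069, that of *lin-28b* MO over *lin-28a* MO from -0.64 to -0.24, and that of *lin-28a* MO over control MO from -0.27 to 0.42, on both sides of 0.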

How the data were processed

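For each of 3 arrays the authors deposited the intensity of 9984 spots in the Hy3 and Hy5 channels. They also deposited the Hy3/Hy5 ratio, on a linear scale, of 208 miRNAs, within 0.396% of the means of spot ratios computed here. Direction follows the dyes in the labels. What was done to the images, and whether background was subtracted or arrays normalized before deposit, is not stated in the labels or methods. The table has no background columns, and nothing further was applied before the ratio was taken.

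The ratio was averaged over the 4 spots of a probe, and folds are ratios of these means, as log2. Spots are technical, and the number of arrays limits the precision. No test was run. The members, lists, naming rule and alternatives were chosen with earlier results of these data known. Named were the members, the other epithelial probes, the 3 miRNAs nearest to miR-203a and the brightest probe of each late-tissue list. Alternatives were other summaries of the spots, each spot left out, the authors' table, loess and normexp (offset 50, limma 3.58.1, R 4.3.3), Hy3 alone scaled on 51 probes over 100 on every array, 3 centrings, and other limits for a count. Python 3.11.15, numpy 2.4.6 and pandas 2.3.3 were used, and the computation was tested on simulated data. No sequences of the miRNAs or probes were used here.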

Additional observations from a re-analysis of the deposited data

How the results depend on the processing

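The miR-203a log2 fold in *lin-28b* morphants over control, -0.66, moved to -0.38 with normexp, -0.069 with centring on bright zebrafish miRNAs and -0.32 with centring on bright unnamed probes. In *lin-28a* morphants, -0.13 moved to -0.028 with loess, -0.27 with Hy3 alone, and 0.42, 0.13 and -0.0037 with centring on bright zebrafish miRNAs, all zebrafish miRNAs and bright unnamed probes. Between the morphants, -0.53 moved to -0.24 with Hy3 alone. Leaving out each spot in turn gave -0.79 to -0.60, -0.15 to -0.079 and -0.64 to -0.46 for these comparisons. The count of members past 1.5-fold in *lin-28b* morphants, 1, became 0 with loess, normexp, each of the 3 centrings or a 2-fold limit. It became 3 with Hy3 alone, where miR-200a (0.78), miR-200b (0.79) and miR-429 (1.24) were higher and miR-203a, at -0.51, was not counted. This scaling rests on bright probes, which were dimmer on that array. The count in *lin-28a* morphants was 0 under all 16 alternatives, and that between the morphants became 1 with the median of spots, 2 with Hy3 alone, and 0 to 1 when a spot was left out (1 without the first spot). Dim signal limits the miR-200 folds, and for miR-429 in *lin-28a* morphants 3 of 4 reference spots shared the most common Hy5. No paired analysis was possible because each condition has 1 array.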
